A study of Mus musculus with 39 samples.

Results

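Total DNA methylation was compared between p53-null and WT mouse embryonic stem cells (mESC) in the naive state, CpG by CpG. Total methylation is the sum of 5-methylcytosine and 5-hydroxymethylcytosine, which reduced representation bisulfite sequencing (RRBS) reads as the same signal. The comparison took the deposited value of the naive p53-null group minus that of the naive WT group at all 330387 CpGs of the table, so that no CpG was left out. These groups hold 8 of the 39 libraries of the series, 3 from p53-null and 5 from WT cells. The p53-null cells carried the label p53-/-, from the strain 129s-Trp53tm2Tyj/J, and the WT cells came from the same matings of p53+/- mice. Both were isolated as morulas at embryonic day 2.5, placed on irradiated feeder fibroblasts and kept in 2i medium. The labels describe feeder removal for the differentiation experiments, and for naive cultures they do not state it. The labels give neither the number of lines or clones behind the libraries nor their sex. RA-treated p53-null and WT cells (1 uM retinoic acid, replenished daily for 4 days; 4 and 5 RRBS libraries) served to sort the CpGs by a level that does not enter the naive difference, and their values are given beside those of called CpGs and runs.

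In mammalian DNA, methyl groups sit mostly on the cytosine of CpG dinucleotides. CpG-dense stretches such as the islands at many promoters are usually unmethylated, while scattered CpGs are usually methylated. Medium with 2i inhibitors holds mESC in a state with low methylation, and differentiation raises it again through the DNA methyltransferases. p53 is a transcription factor best known for its response to DNA damage and other stress.

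The authors deposited 1 whole-number percent value per CpG and group. Read depth is unknown, and no value of a single library was used. Group values therefore carry no SD over libraries and no test, and it was not tested how the differences compare with variation among libraries. The ranges over chromosomes given below describe the genome of the pooled groups, not their libraries.

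Naive p53-null cells were the more methylated at CpGs that carry methylation, and both genotypes were near 0 at the rest. Over all CpGs the means were 12.6% in p53-null and 9.77% in WT cells, a difference of 2.82 percentage points. At the 88134 CpGs with at least 20% methylation in RA-treated WT cells, naive p53-null cells averaged 44.7% and naive WT cells 34.6%. The difference there was 10.1 points, with a median of 9 points. At these CpGs the p53-null value was the higher at 76.7%, the lower at 20% and the same at 3.34%. The middle 50% of differences ran from 1 to 18 points, and the 5th and 95th percentiles were -11 and 33 points. At the 242253 CpGs under 20% in RA-treated WT cells, the naive means were 0.934% in p53-null and 0.751% in WT cells. The difference was thus spread over most methylated CpGs, with a minority going the other way.

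Counted by size, 14.0% of all CpGs (46356) were higher in p53-null cells by at least 10 points and 1.88% (6214) were lower. At 25 points the shares were 3.75% higher and 0.192% lower, and at 50 points 0.126% and 0.00363%. Just inside the limit of 10 points, the 3162 CpGs with a difference of exactly 10 averaged 39.6% in p53-null and 29.6% in WT cells. Just outside it, the 3447 CpGs at 9 points averaged 38.1% and 29.1%. The CpGs higher by 10 points or more averaged 53.7% in naive p53-null and 33.3% in naive WT cells. The same CpGs averaged 53.6% in RA-treated p53-null and 57.5% in RA-treated WT cells. For the CpGs lower by 10 points or more the naive means were 25.6% and 41.6%, and the RA means 45.1% and 49.9%. Both sets were mostly CpGs that carry methylation after RA. In RA-treated WT cells, 94.4% of the higher and 83.4% of the lower CpGs were at 20% or more. All 88134 CpGs at 20% or more there averaged 52.4% in RA-treated p53-null and 57.1% in RA-treated WT cells. The lower RA mean in p53-null cells was thus not particular to the called CpGs.

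Near-zero CpGs differed little. Both genotypes were listed at 0 at 160516 CpGs, 48.6% of the total. Another 33516 were at 0 only in p53-null cells, with a WT mean of 2.96%, and 30425 were at 0 only in WT cells, with a p53-null mean of 3.79%. Of the CpGs at 0 in WT, 1710 reached 10% or more in p53-null cells. In the other direction, 998 CpGs at 0 in p53-null cells were at 10% or more in WT cells.

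The difference was next described by the WT level. The mean was higher in p53-null cells in each class under 80% in WT, by most points from 20% to 60%. At the 27791 CpGs with 20% to 40% in WT, p53-null cells averaged 41.7% and WT cells 29.4%, a difference of 12.3 points (11 to 13.4 over 20 chromosomes). At the 22881 CpGs with 40% to 60% the means were 60.2% and 48.8%, a difference of 11.3 points. At 60% to 80% the means were 73.4% in p53-null and 67.4% in WT cells, and at 5% to 20% they were 15.9% and 10.6%. The 236527 CpGs under 5% in WT, 71.6% of all, averaged 0.865% in p53-null and 0.407% in WT cells. Only the 1734 CpGs at 80% or more in WT had the lower mean in p53-null cells, 84.0% against 85.8% in WT.

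The WT column forms these classes and also enters the difference, so that class and difference are not independent. The RA-treated WT column comes from other libraries and does not enter the naive difference. In classes from that column the top class had the opposite sign: the 10974 CpGs at 80% or more averaged 69.6% in p53-null and 58.5% in WT cells, a difference of 11.1 points (10.1 to 12.8 over 20 chromosomes). The difference was 11.7 points at 60% to 80%, 10.5 points at 40% to 60%, 6.13 points at 20% to 40% and 1.32 points at 5% to 20%. Under 5%, where 216719 CpGs lie, it was 0.0482 points. In points the difference therefore went up with the RA level as far as the class at 60% to 80%. As a ratio of means, p53-null over WT, it ran the other way from 20% upward, 1.46 at 20% to 40%, 1.37 at 40% to 60%, 1.26 at 60% to 80% and 1.19 at 80% or more.

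**Figure D1:**
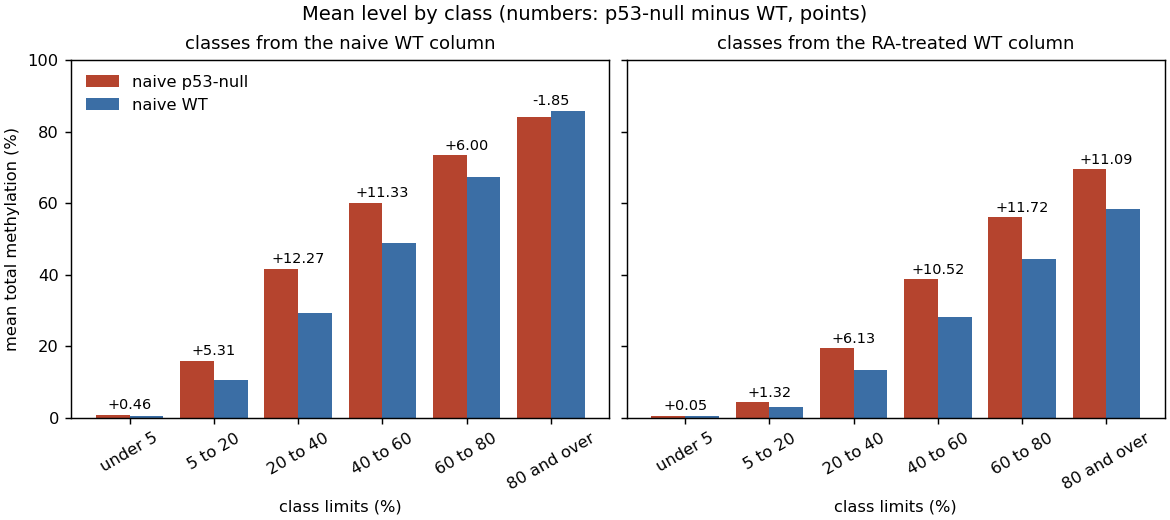
Mean total methylation (%) in naive p53-null and naive WT cells, by class of CpG. Classes come from the naive WT column on the left and from the RA-treated WT column on the right, and the numbers above the bars give p53-null minus WT in points. The class at 80% or more differs by -1.85 points on the left and by 11.1 points on the right.

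Single CpGs mostly moved by no more than 1 class. Of the 330387 CpGs, 261076 were in the same class in both genotypes, 55270 were in a higher class in p53-null cells and 14041 in a lower one. Of those in the same class, 223224 were under 5% in both genotypes, the class with none below it. Of the 93860 CpGs at 5% or more in WT, 41967 were in a higher class in p53-null cells and 14041 in a lower one. Shifts of 2 or more classes were found at 8557 CpGs upward and at 555 downward. Of CpGs at 20% to 40% in WT, 42.0% were at 40% to 60% in p53-null cells and 36.7% stayed in their class. Of those at 40% to 60% in WT, 45.7% were at 60% to 80% in p53-null cells, and of those at 60% to 80%, 34.0% were at 80% or more. The class at 80% or more held 6987 CpGs in p53-null cells, of which 17.3% were in that class in WT, 52.1% came from 60% to 80% and 26.3% from 40% to 60%. The class at 5% to 20% in WT split both ways, with 26.1% of its CpGs under 5% and 27.8% at 20% to 40% in p53-null cells. Of CpGs under 5% in WT, 94.4% were also under 5% in p53-null cells, while 78 were at 40% to 60% and 4 at 60% to 80%.

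**Figure D2:**
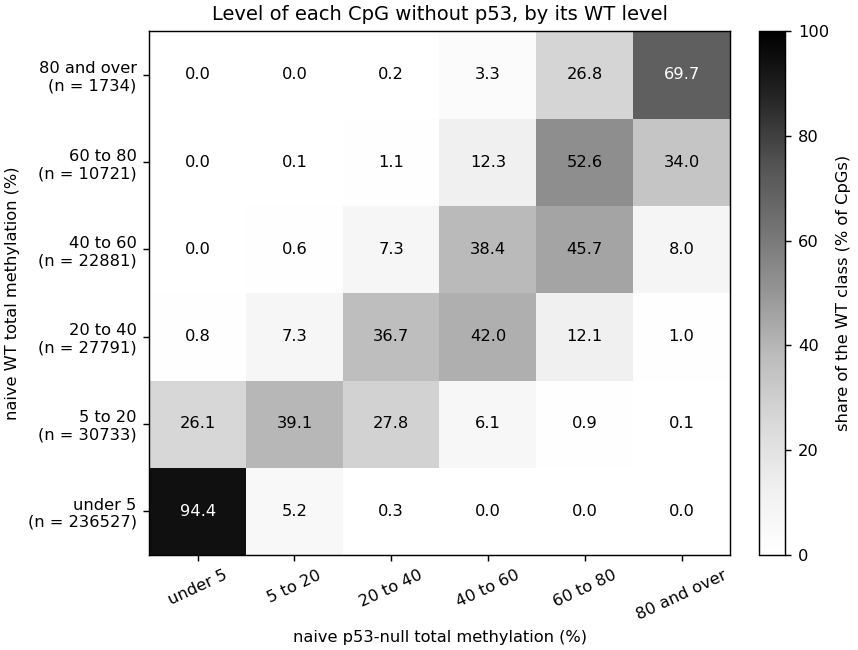
Share of CpGs (% of each WT class) by their level in naive p53-null cells (columns) for each level in naive WT cells (rows, with the number of CpGs). From 20% to 60% in WT the largest share lies 1 class up in p53-null cells, 42.0% and 45.7%, while under 5% it lies in the same class, 94.4%.

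Local CpG spacing was measured as the distance to the nearest other CpG in the table, which covers MspI fragments and not every CpG of the genome. Its median was 13 bp. Isolated CpGs had both the higher methylation and the larger difference in points. The 15442 CpGs with no other measured CpG within 10000 bp averaged 52.6% in p53-null and 41.3% in WT cells, a difference of 11.4 points (9.96 to 12.4 over 20 chromosomes). The 19233 CpGs with a neighbour beyond 100 and up to 300 bp averaged 32.1% and 24.7%, a difference of 7.44 points. At 51 to 100 bp the difference was 5.13 points, at 26 to 50 bp 3.01 points and at 11 to 25 bp 1.40 points. The 147211 CpGs with a neighbour within 10 bp averaged 2.40% in p53-null and 1.96% in WT cells, a difference of 0.440 points (0.260 to 0.662).

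The ratio of the means varied far less with spacing than the difference did. It was 1.22 within 10 bp, 1.28 at 11 to 25 bp and 1.28 beyond 10000 bp, and between 1.30 and 1.31 in the 5 classes from 26 to 10000 bp. A difference in points that grows with spacing thus went with a WT level that grows with spacing, from 1.96% within 10 bp to 41.3% beyond 10000 bp.

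Among CpGs that reach 20% to 80% in RA-treated WT cells, spacing made a smaller difference. The 12220 CpGs of this kind with no neighbour within 10000 bp averaged 51.9% in p53-null and 39.8% in WT cells, a difference of 12.1 points (10.8 to 13.7 over 20 chromosomes). The 7042 with a neighbour within 10 bp averaged 32.5% and 25.4%, a difference of 7.07 points (5.46 to 8.99). The chromosome ranges of these end classes did not overlap. In the narrower class of 40% to 60% in RA-treated WT the differences were 12.8 points beyond 10000 bp and 7.90 points within 10 bp, with RA-treated WT means of 50.7% and 49.9%. Here the chromosome ranges overlapped, 11.7 to 14.5 points beyond 10000 bp and 5.15 to 12.4 points within 10 bp. The naive means were 47.5% in p53-null and 34.7% in WT cells beyond 10000 bp, and 31.7% and 23.8% within 10 bp. CpGs alike in RA-treated WT cells were thus less methylated in both naive genotypes where they lie close together. Among CpGs under 5% in RA-treated WT cells, the difference was 0.0187 points with a neighbour within 10 bp, 0.886 points beyond 1000 and up to 10000 bp (544 CpGs) and 0.302 points beyond 10000 bp (232 CpGs), so it did not go up throughout.

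**Figure D3:**
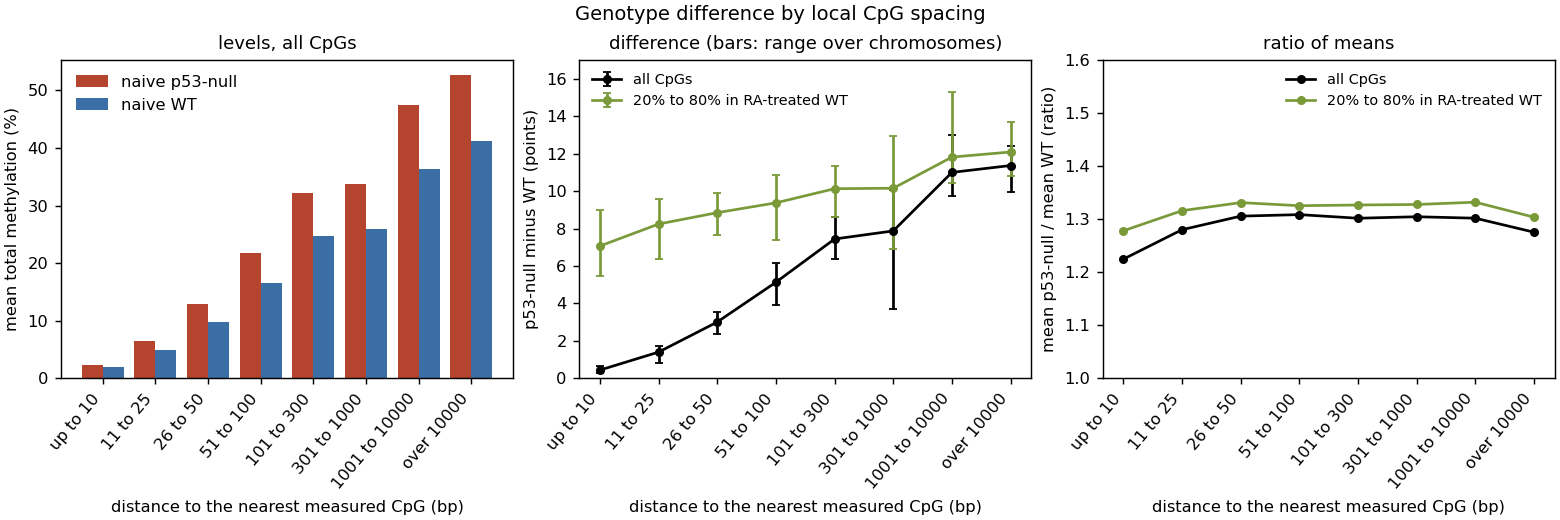
Naive total methylation by distance to the nearest measured CpG (bp). The left panel gives the means (%) of p53-null and WT cells, the middle panel the difference in points with the range over chromosomes as bars, and the right panel the ratio of the means. The difference over all CpGs goes up from 0.440 to 11.4 points with spacing, while the ratio over all CpGs lies between 1.22 and 1.31. Green marks CpGs at 20% to 80% in RA-treated WT cells, where the difference goes up from 7.07 to 12.1 points.

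Counting the measured CpGs within 100 bp on either side gave the same order. The 56462 CpGs with none averaged 42.5% in p53-null and 32.9% in WT cells, a difference of 9.63 points. With 5 to 9 such neighbours the means were 0.823% and 0.709%. With 20 or more, at 3706 CpGs, they were 0.326% and 0.334%, a difference of -0.00783 points. The most crowded CpGs were thus near 0 in both genotypes.

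Along the genome the difference was positive on each of the 20 chromosomes described and in nearly every window. The 20 chromosomes with at least 1000 CpGs had differences from 2.47 points on chromosome 2 to 3.38 points on chromosome 8. Chromosome 2 averaged 11.1% in p53-null and 8.58% in WT cells, and chromosome 8 averaged 14.1% and 10.7%. Restricted to CpGs at 20% to 80% in RA-treated WT cells, the chromosomes ran from 9.06 points on chromosome 5 to 10.7 points on chromosome 8 (mean 9.93 ± 0.434, SD over the 20 chromosomes). Chromosome 11, which carries the p53 gene, had 2.5 points over all its CpGs and 9.71 points over the restricted ones. With the measured span of each chromosome cut into 10 equal parts, the restricted difference ran from 9.46 points in part 4 to 10.3 points in part 6. Part 10, at the far end, had 3.18 points over all CpGs, the highest of the 10, and 9.89 points over the restricted ones.

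Windows of 1000000 bp with at least 50 CpGs numbered 1623, and p53-null cells had the higher mean in 1618 of them. The median window difference was 2.61 points, and the 5th and 95th percentiles were 0.936 and 5.64 points. Across the 1623 windows, which share the same pooled libraries, the difference had a Pearson correlation of 0.823 with the share of CpGs at 20% or more in RA-treated WT cells. With CpGs at 20% to 80% in RA-treated WT cells only, all 1326 windows with at least 20 of them had the higher mean in p53-null cells. Their median was 9.82 points, and the 5th and 95th percentiles were 5.32 and 14.1 points. Over these restricted windows the Pearson correlation of the difference with the naive WT level was 0.200, against 0.802 over the 1623 windows with all CpGs. The naive WT level also enters the difference.

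The window of largest difference was on chromosome 6 (mm9 144000001 to 145000000), where 64 CpGs averaged 39.8% in p53-null and 29.4% in WT cells. It was followed by chromosome 8 (117000001 to 118000000), where 114 CpGs averaged 47.0% and 36.8%, and chromosome 11 (12000001 to 13000000), where 60 CpGs averaged 34.2% and 24.5%. Chromosome 13 (68000001 to 69000000) had 30.7% and 21.1% over 58 CpGs, and chromosome 14 (78000001 to 79000000) 29.9% and 20.3% over 70 CpGs. In these 5 windows, 46.6% to 97.4% of the CpGs were at 20% or more in RA-treated WT cells.

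The 5 windows with the lower mean in p53-null cells differed by 0.523 points or less in size. The lowest was on chromosome 13 (111000001 to 112000000), with 12.3% in p53-null and 12.8% in WT cells over 65 CpGs. Next came chromosome 7 (111000001 to 112000000), with 13.3% and 13.7% over 66 CpGs. The remaining 3 were on chromosome X (136000001 to 137000000), chromosome 1 (22000001 to 23000000) and chromosome 3 (7000001 to 8000000). Among the restricted windows, that same window of chromosome 13 was also the lowest, at 34.0% in p53-null and 33.95% in WT cells over its 21 CpGs at 20% to 80% after RA. The highest restricted window, picked after its value was seen, was on chromosome 4 (5000001 to 6000000), at 62.4% and 42.3% over 22 CpGs.

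Chromosome X stood apart in its lower CpGs. Of its 4946 CpGs, 14.7% were higher in p53-null cells by at least 10 points, inside the range of the 19 autosomes, 12.1% to 16.0%. The share lower by at least 10 points was 3.50% on X and 1.48% to 2.43% on the autosomes. Among CpGs under 5% in RA-treated WT cells, those lower by 10 points made up 0.990% on X and 0.140% to 0.435% on the autosomes. The share higher by as much was 0.990% on X too, against 0.238% to 0.483% on the autosomes, so that X had more CpGs changed both ways in this class. The shares of X in this class rest on 31 lower and 31 higher CpGs of 3132. Without the CpGs of lower runs described below, the share of X lower by 10 points was 3.03% over all its CpGs and 0.736% in this class.

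Neighbouring CpGs tended to differ together over short distances. The correlation of the difference between neighbours is a description with no test, since neighbours share libraries, MspI fragments and often reads, and since methylated CpGs lie near each other. Pairs were therefore taken both without a limit on level and with both CpGs at 20% or more in RA-treated WT cells. For the second kind, Pearson's r was 0.466 at 1 to 5 bp (1583 pairs), 0.395 at 11 to 25 bp (5440 pairs) and 0.273 at 51 to 100 bp (7499 pairs). It was 0.215 beyond 100 and up to 200 bp, 0.105 up to 500 bp, 0.0710 up to 1000 bp and 0.0160 up to 10000 bp. Over all pairs r was 0.434 at 1 to 5 bp (50747 pairs), 0.493 at 11 to 25 bp and 0.0312 beyond 1000 and up to 10000 bp. Agreement between neighbours was thus near 0 beyond 1000 bp.

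At close range lower CpGs had lower neighbours more often than all CpGs of the same pairs. In those pairs at 1 to 5 bp, 34.0% of the neighbours of lower CpGs were lower too, where 7.61% of all CpGs in such pairs were lower by 10 points. Beyond 100 and up to 200 bp the shares were 13.1% and 5.57%, and beyond 1000 and up to 10000 bp 5.0% and 5.61%. For higher CpGs the corresponding shares were 63.9% and 42.4% at 1 to 5 bp, 57.5% and 50.9% up to 200 bp, and 53% and 52.7% up to 10000 bp. Where both CpGs of a pair passed 10 points, they went the same way in 91.8% of pairs at 1 to 5 bp. The share was 82.8% beyond 1000 and up to 10000 bp. It was still 81.3% beyond 10000 bp, where Pearson's r was 0.00844. Higher CpGs far outnumbered lower ones, so most such pairs go the same way without any link between neighbours. The share without a link was not computed.

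**Figure D4:**
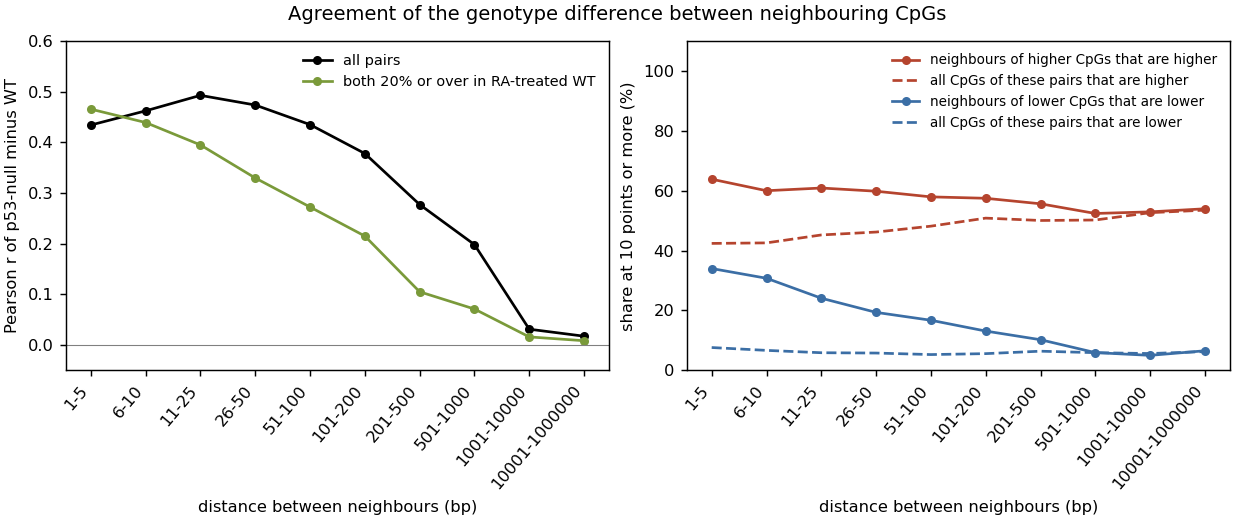
Agreement of the genotype difference between neighbouring measured CpGs, by the distance between them (bp). The left panel gives Pearson's r for all pairs and for pairs with both CpGs at 20% or more in RA-treated WT cells, and the right panel gives, for the second kind, the share of neighbours (%) that pass 10 points in the same direction (solid) beside the share of all CpGs in those pairs (dashed). The solid and dashed lines part below 500 bp and meet beyond 1000 bp.

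Runs were defined as at least 3 consecutive measured CpGs, each at most 200 bp from the last, that were all at least 10 points higher or all at least 10 points lower in p53-null cells. Naive cells had 1513 runs higher in p53-null cells, with 5056 CpGs, and 65 runs lower, with 230 CpGs. Of all CpGs 14.0% were higher and 1.88% lower by 10 points, and the runs held 10.9% of these higher and 3.70% of these lower CpGs. Most runs were short: 1141 of the higher runs had 3 CpGs, 265 had 4 and 107 had 5 or more, and the longest had 9. Their median length was 115 bp and the greatest 522 bp. Of 6656 stretches of at least 3 such close CpGs that were all at 20% or more in RA-treated WT cells, 21.4% held a higher run and 0.781% a lower run. Among all CpGs at 20% or more in RA-treated WT cells, 49.6% were higher and 5.88% lower by 10 points. How many runs such shares would give without any link between neighbours was not tested. The mean difference of a whole stretch was above 0 in 85.2% of them, with a median of 8.80 points and a middle 50% from 3 to 14.7 points.

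Of the 1513 higher runs, 1103 had a WT mean of 20% to 60%. Over all 1513 higher runs the median level was 52.7% in naive p53-null and 31.3% in naive WT cells. After RA it was 55% in p53-null and 59.5% in WT cells. The same order was found over all CpGs at 20% or more in RA-treated WT cells. The naive p53-null level was above the RA-treated WT level in 446 of the 1513 runs, 29.5%. In 53 runs the p53-null mean was 80% or more. Their medians were 85.3% in p53-null and 61.8% in WT cells, against 74.7% in RA-treated WT cells. These runs were picked by their naive p53-null values, so a level above that of RA-treated WT cells is partly set by the choice. In 45 runs the WT mean was under 5%, with medians of 18.3% in p53-null and 2.33% in WT cells, and 25.7% in RA-treated WT cells. Only 3 higher runs were under 5% in RA-treated WT cells. These lay on chromosome 13 (60599284 to 60599306), at 20% in p53-null and 4.33% in WT cells, and on chromosome 9 at 74710717 to 74710782, at 14.3% and 1.67%, and at 101154298 to 101154314, with 4 CpGs of 10% to 16% in p53-null and 0% in WT cells. By chromosome, there were 4.13 to 7.27 higher runs per 100 stretches of at least 3 close CpGs on the autosomes and 2.47 on X, where 12 were found.

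The higher run with the most CpGs was on chromosome 9 (35431459 to 35431730). Its 9 CpGs were at 46%, 48%, 17%, 35%, 38%, 35%, 43%, 43% and 39% in p53-null cells, against 29%, 13%, 4%, 16%, 20%, 20%, 7%, 16% and 25% in WT cells. By the definition of a run each p53-null value was higher than the WT value of its CpG, here by 13 to 36 points. Both genotypes were lowest at the third CpG. RA-treated cells averaged 43% in p53-null and 33.8% in WT there. The run on chromosome 8 (26674753 to 26674981) had 8 CpGs, from 44% to 76% in p53-null and from 19% to 42% in WT cells, so that the genotypes did not overlap. Its mean of 58.6% in naive p53-null cells, against 31.4% in naive WT cells, was near the 60.9% of RA-treated WT cells.

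In each of the 5 runs of 7 CpGs the highest WT value reached or passed the lowest p53-null value. On chromosome 5 (65213120 to 65213442) the means were 39.1% in p53-null and 18.4% in WT cells, with 60% in RA-treated WT cells. On chromosome 2 (104008219 to 104008479) they were 35.9% and 16.4%, with 63.9% in RA-treated WT cells. Both runs thus stood between naive WT and RA-treated WT cells. On chromosome 13 the run at 22641471 to 22641569 averaged 42.4% and 24%, and that at 41814815 to 41814893 42.7% and 25.4%. On chromosome 4 (150152048 to 150152213) the means were 50.9% and 35.3%.

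Of the higher runs with 6 CpGs, that on chromosome 4 (5138306 to 5138669) was the most methylated, at 80.5% in p53-null and 45.8% in WT cells. Its p53-null values lay between 73% and 91% and its WT values between 19% and 59%. After RA the order there was the opposite, 65.5% in p53-null and 76.7% in WT cells. It lies in the chromosome 4 window given above as the highest restricted one. The others named were on chromosome 8, at 107117824 to 107117912, with 53.7% in p53-null and 23.5% in WT cells, and at 125381361 to 125381408, with 61.2% and 35%. By size rather than length, the largest mean difference of a run was 50.5 points, on chromosome 1 (191579103 to 191579140). Its 4 CpGs were at 96%, 78%, 61% and 49% in p53-null and at 43%, 17%, 13% and 9% in WT cells, falling in the same order along the run in both genotypes.

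**Figure D5:**
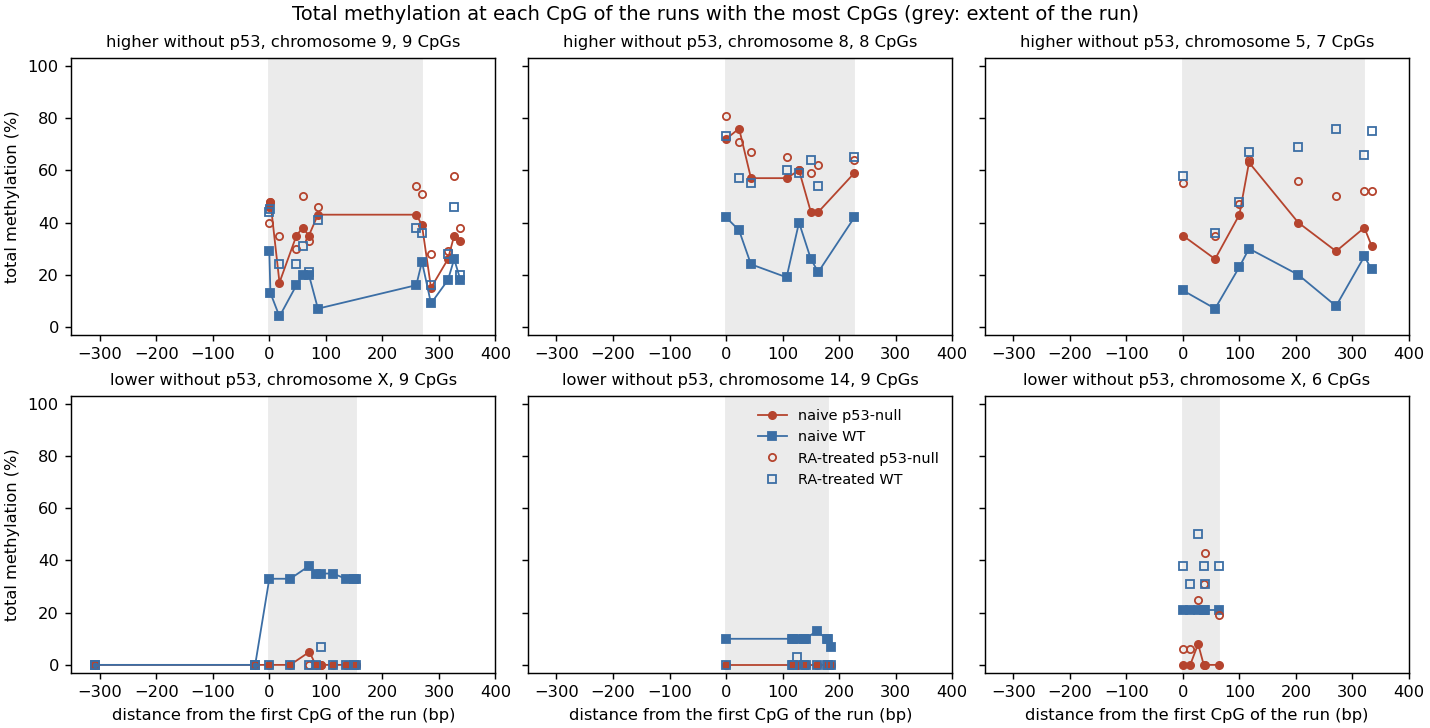
Total methylation (%) at each measured CpG of the 3 higher (top) and 3 lower (bottom) runs with the most CpGs, by distance from the first CpG of the run (bp), for naive p53-null, naive WT, RA-treated p53-null and RA-treated WT cells. Grey marks the run. In the higher runs both genotypes vary from CpG to CpG, while in the lower runs shown WT values are nearly level, at 33% to 38%, 10% to 13% and 21%, above p53-null values of 8% or less.

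Some lower runs had nearly level WT values. In 19 of the 65 lower runs, 29.2%, the WT values of all CpGs lay within 5 points of each other, and in 130 of the 1513 higher runs, 8.59%. The p53-null values lay as close in 19 of the lower runs, 29.2%, and in 75 of the higher runs, 4.96%. Level values were thus not particular to WT cells. Level WT values also went with a low WT level: of the 45 higher runs with a WT mean under 5%, 66.7% had them. The runs were not matched on level. The p53-null mean was under 5% in 19 lower runs, with medians of 1.67% in p53-null and 16.3% in WT cells. These were not the same 19 as those with level WT values, since 11 of them, 57.9%, had such values. In 14 of them, 73.7%, the p53-null values lay within 5 points of each other. Of the 2 lower runs with 9 CpGs, the most of any lower run, that with the larger difference was on chromosome X (93152242 to 93152396). In p53-null cells 8 of them were at 0% and 1 at 5%, while in WT cells all lay between 33% and 38%. After RA the means were 0% in p53-null and 0.778% in WT cells, and the 2 other CpGs measured within 500 bp were at 0% in both naive groups. Naive WT cells were thus the only group of the 4 with a mean above 0.778% there. The 9 CpGs span 155 bp and may share reads, so they are not independent of each other.

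Another 6 of the 10 named lower runs were also under 5% in naive p53-null cells, but they differed in their RA levels. On chromosome 14 (57396314 to 57396495) 9 CpGs were at 0% in p53-null cells and at 10% to 13% in WT cells, and the RA-treated means were 0% in p53-null and 0.333% in WT cells. On chromosome 18 (37885640 to 37885790) 6 CpGs averaged 0.667% in p53-null and 14.2% in WT cells, with 6% and 2% after RA. On chromosome X (154006970 to 154007035) 6 CpGs averaged 1.33% in p53-null cells and were at 21% each in WT cells. RA-treated cells were methylated there in both genotypes, at 21.7% in p53-null and 37.7% in WT.

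On chromosome 13 (62659935 to 62660013) 5 CpGs averaged 1.6% in p53-null and 15.4% in WT cells, with 14.6% and 11.6% after RA. A run of 4 CpGs on chromosome 15 (9024005 to 9024207) averaged 3.75% and 25.8%, with WT values of 25% and 26%, and 12.5% and 7% after RA. The run of 4 CpGs on chromosome 8 (73415748 to 73416032) was at 0% in p53-null cells, while WT values were not level there and lay between 18% and 31%. Its RA-treated means were 5.5% in p53-null and 8.25% in WT cells.

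The remaining named lower runs kept methylation in p53-null cells. On chromosome 11 (63777659 to 63777767) 5 CpGs averaged 42% in p53-null and 63% in WT cells, on chromosome 2 (163468564 to 163468859) 16.8% and 35.2%, and on chromosome 6 (14751664 to 14751776) 19.5% and 43.25%. At 25 points or more per CpG there were 84 higher and 3 lower runs. The 3 lower ones were the 9-CpG run on chromosome X and runs of 3 CpGs on chromosome 18 (42547900 to 42547996), at 25.3% in p53-null and 64% in WT cells, and on chromosome 10 (103029776 to 103029846), at 15.7% and 53.7%. Chromosome X held 5 of the 65 lower runs, or 1.03 per 100 stretches of close CpGs, against 0 to 0.622 on the autosomes.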

How the data were processed

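Per the labels' protocols, genomic DNA was cut with MspI, ligated to adapters and bisulfite-treated. The submitters' processing notes name Trim Galore, BSMAP, methylKit and the build mm9. The sources used here do not state coverage filters or how libraries were combined. The deposited table gives percent methylation in whole numbers per CpG, with 1 column per genotype and state, taken as pooled RRBS groups. Another 4 columns with an undefined suffix, and the table of 200 bp tiles, were not used.

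The naive p53-null value minus the naive WT value was computed at each CpG, then averaged by level class (limits 5, 20, 40, 60 and 80%), spacing, chromosome and window. Named runs are the 10 with the most CpGs in each direction (ties by mean difference), 1 per 10000 bp, and named windows the 5 highest and 5 lowest. Members, classes and runs were chosen with earlier results of these data known. With 1 pooled column per group no test was run, and the limma fit planned for single libraries was not made. Runs and windows picked by size alone were added after values were seen. The finding of runs was tested on simulated data with planted runs. All other simulated differences were under 10 points, so the test cannot show how many runs arise from scatter. No mm9 annotation was at hand, so no gene is named. Coordinates count from 1. Python 3.11.15, numpy 2.4.6, pandas 2.3.3 and matplotlib 3.10.9 were used.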

Additional observations from a re-analysis of the deposited data

Results flagged for a closer look

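The genotype difference over all CpGs was 2.82 points in naive cells and -1.17 points in RA-treated cells, opposite in sign. This difference between the states was not tested, since each group has 1 column of values. Among the named runs, that on chromosome 4 (5138306 to 5138669) was higher by 34.7 points in naive p53-null cells and lower by 11.2 points (a difference of -11.2) in RA-treated p53-null cells. That was not tested either, and the run was chosen for its naive difference.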

How the results depend on the processing

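Of 33 alternative values, 16 kept their direction and stayed within 1 SD over chromosomes or, for counts, within 1.5 times. All of those that left out chromosome 11 or the sex chromosomes were among these 16. The mean naive difference was 5.49 points without CpGs at 0 in both naive columns and 5.98 points with each 200 bp tile counting once, where the median window had 5.70 points. At 25 points, 12375 CpGs were higher and 633 lower. The class at 80% or more in WT, -1.85 points, reversed to 11.1 points with classes from the RA-treated WT column and to 8.68 points with classes from the mean of both naive columns. The class at 20% to 40% moved to 6.13 and 10.2 points. The difference beyond 10000 bp minus that within 10 bp was 10.9 points, against 9.64 points by CpGs within 100 bp and 5.02 points among CpGs at 20% to 80% after RA. Runs numbered 84 higher and 3 lower at 25 points per CpG, 2975 and 236 at 5 points, and 107 and 7 with at least 5 CpGs. Leaving CpGs out or counting tiles once changes which CpGs weigh, and the cause of the other shifts was not tested. No paired analysis was possible because each group has 1 pooled column with no replicate numbers, and libraries could not be left out in turn for the same reason. Depth is unknown, so levels of single CpGs and short runs may rest on few reads.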
